A study of Mus musculus with 6 samples.

Results

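The genes described here are Acat2, Hmgcs1, Mvk, Pmvk, Mvd, Idi1, Fdps, Fdft1 and Ggps1, which encode 9 enzymes of the mevalonate pathway and its first branches. They were chosen by their place in the pathway and on earlier results of this same comparison, in which genes of cholesterol synthesis had been higher with metformin. Their differences between the groups are therefore given as a description, and nothing is supported by how many of them moved. All 9 were found by gene name among the 54532 genes of the deposited table. All 9 also had a mean of at least 0.5 FPKM over the samples and so entered the fit, although Fdps reached that limit only through its metformin samples. FPKM is the number of fragments of a gene scaled by the length of the gene and the depth of the library, so that levels can be compared between genes.

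RNA was sequenced from MC3T3-E1, a mouse pre-osteoblast line, after 3 days in osteogenic medium, which held β-glycerophosphate, ascorbic acid and dexamethasone. The control group (3 samples) received this medium alone, and the metformin group (3 samples) received it with 0.2 mM metformin, a biguanide used to lower blood glucose. Both groups thus shared the dexamethasone and the other osteogenic agents. All samples came from 1 cell line, and the paper calls the samples of a group biological replicates without saying how the cultures were separated, so the spread between them may be partly technical.

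The mevalonate pathway builds isoprenoids from acetyl-CoA. Acetyl-CoA units are joined to HMG-CoA, which is converted to mevalonate, and phosphorylation and decarboxylation of mevalonate give isopentenyl diphosphate. Condensation of these units gives farnesyl diphosphate, which is either joined to squalene on the way to cholesterol or extended to geranylgeranyl diphosphate, a lipid anchor of small GTPases. The pathway is known in bone because the nitrogen-containing bisphosphonates act on farnesyl diphosphate synthase. Many of its genes carry sterol regulatory elements, the sites of the SREBP transcription factors.

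The reads recovered from the FPKM were 18399861 to 20652437 per control sample and 19256672 to 22111790 per metformin sample. The 9 genes had between 23 reads, for Fdps in a control, and 4631 reads, for Hmgcs1 with metformin. Over the tested genes, any pair of metformin samples reached a Pearson correlation of 0.992 on the log2 scale, whereas control replicate 1 reached 0.952 and 0.96 with the other controls. Mitochondrially encoded transcripts held 6.36% to 10.01% of the reads in the controls and 2.72% to 3.16% with metformin. The part of this difference in the results below was not tested.

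With metformin, 8 of the 9 genes were above every control sample, and Ggps1 was the exception. The ratio of mean FPKM lay between 1.78, for Pmvk, and 3.73, for Idi1, in 7 of them and was 5.42 for Fdps, which had few reads. For Ggps1 the ratio was 0.816 and the groups overlapped. The summed FPKM of the 9 genes was 93.2, 85.3 and 75.1 in the controls and 189, 200.5 and 190.4 with metformin. A gene was called when limma-trend over all 12681 tested genes gave it a Benjamini-Hochberg adjusted p-value below the threshold of 0.05. Of the 9 genes 8 were called higher with metformin and 0 lower, where 13.2% of all tested genes were called higher and 9.28% lower. This count and the median below include Fdps, which passed the filter only through its metformin samples. Of all tested genes, 23.6% had the metformin samples entirely above the controls and 20.5% entirely below. The median log2 fold change was 1.13 over the 9 genes and 0.005 over all tested genes. Since this comparison was in view when the genes were chosen, nothing is read from these counts. In bulk RNA, more cells that express a gene and more of its RNA per cell cannot be told apart.

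**Figure D1:**
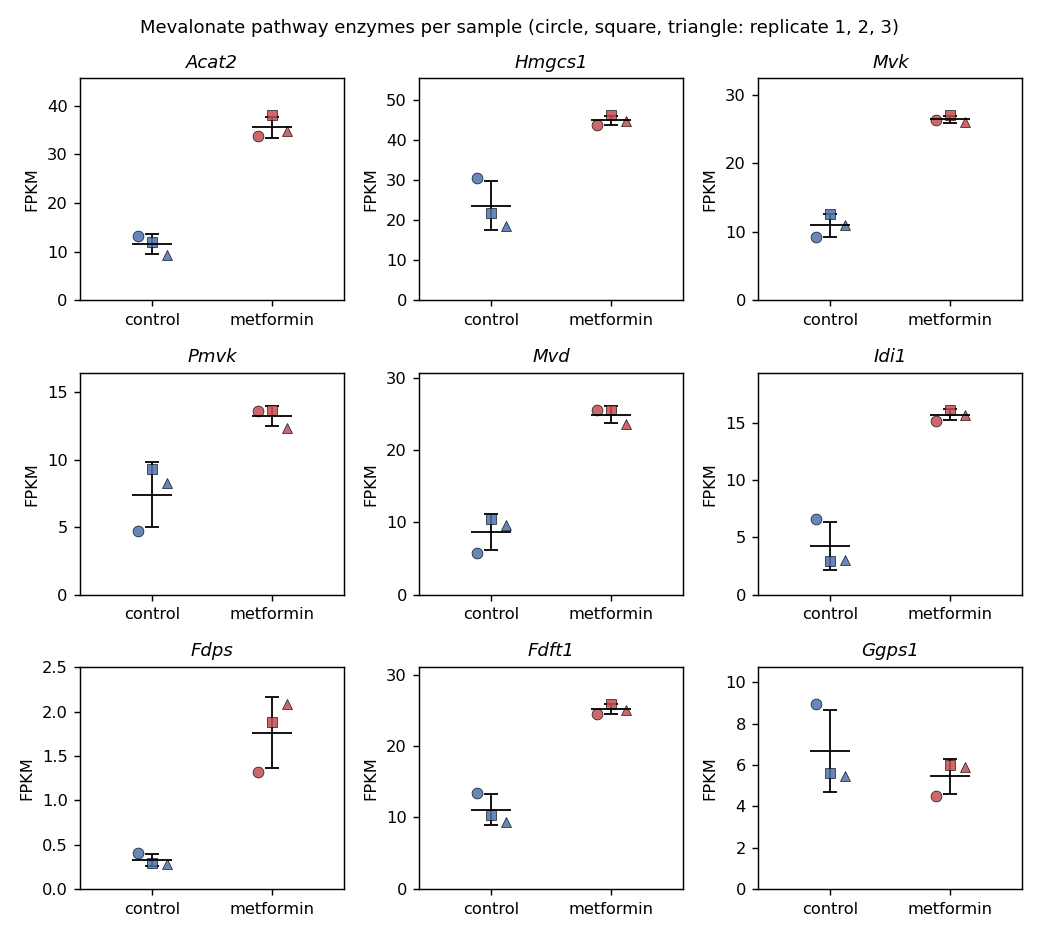
FPKM of each of the 9 genes (vertical axis, from 0) in the 3 control and the 3 metformin samples. Symbols are replicates 1 to 3, the horizontal bar is the mean and the error bar the SD. In 8 panels the metformin samples lie above the controls, and in the Ggps1 panel the groups overlap.

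The first steps make HMG-CoA. Acat2 (chromosome 17, 12942890 to 12960747) encodes the cytosolic acetyl-CoA acetyltransferase, which joins a pair of acetyl-CoA molecules. Its FPKM was 13.3, 11.99 and 9.30 in the controls and 33.8, 38.0 and 34.9 with metformin. Every metformin sample was at least 2.53 times the highest control, and the log2 fold change on the log2(FPKM + 1) scale was 1.55 (95% interval 1.23 to 1.88). The Acat2 transcripts are 97.7% identical over 1477 bases to those of Acat3, which had 4 to 11 reads in a sample. They also share 445 bases at 98.7% identity with Tcp1, which encodes a chaperonin subunit and had 4316 to 6614 reads. Hmgcs1 (chromosome 13, 119690379 to 119708260), the cytosolic HMG-CoA synthase, was the most abundant of the 9 per length in both groups. It had 30.6, 21.9 and 18.7 FPKM in the controls and 44.0, 46.3 and 44.8 with metformin. Control replicate 1 was the sample nearest to the metformin group, and the lowest metformin sample was 1.44 times that control. The log2 fold change was 0.93 (95% interval 0.52 to 1.34).

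The next enzymes turn mevalonate into the isoprene unit. Mvk (chromosome 5, 114444269 to 114460591) encodes mevalonate kinase and went from 9.27, 12.5 and 11.0 FPKM to 26.3, 27.0 and 26.0 FPKM. The 3 metformin samples differed by little, with an SD of 0.502 FPKM around 26.4, and the log2 fold change was 1.21 (95% interval 0.94 to 1.48). Pmvk (chromosome 3, 89454541 to 89469013), the phosphomevalonate kinase, showed the smallest difference of the 8. Its FPKM was 4.70, 9.30 and 8.29 in the controls and 13.7, 13.7 and 12.4 with metformin. Here control replicate 1 lay far below the other controls, and the log2 fold change was 0.80 (95% interval 0.28 to 1.32). Pmvk was also the nearest of the 8 to the threshold, and it was called in 7 of the 14 alternative fits. Mvd (chromosome 8, 122433601 to 122443422), the diphosphomevalonate decarboxylase, had 5.80, 10.5 and 9.72 FPKM in the controls and 25.6, 25.6 and 23.6 with metformin. Its log2 fold change was 1.46 (95% interval 0.99 to 1.93). Idi1 (chromosome 13, 8885501 to 8892451) encodes the isomerase that interconverts isopentenyl and dimethylallyl diphosphate. It had 6.64, 2.98 and 3.03 FPKM in the controls and 15.2, 16.2 and 15.7 with metformin, so that control replicate 1 was well above the other controls and still under every metformin sample. The log2 fold change, 1.75 (95% interval 1.15 to 2.35), was the largest of the 9 on this scale. Idi1 has a processed pseudogene, Gm13502, with 100% identity over 684 bases and 5 to 24 reads in a sample.

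The last enzymes make and use farnesyl diphosphate. Fdps (chromosome 3, 89093588 to 89101959) encodes farnesyl diphosphate synthase. It was listed at 0.403, 0.295 and 0.278 FPKM in the controls and at 1.32, 1.89 and 2.09 with metformin, from 23 to 31 and from 110 to 173 reads. These levels were the lowest of the 9 in both groups, and the lowest metformin sample was 3.27 times the highest control. The log2 fold change was 1.05 (95% interval 0.73 to 1.37) with the pseudocount of 1 and 2.42 by voom on the recovered reads, since the pseudocount exceeds the level of Fdps in the controls. The gene partly overlaps the same-strand gene model Gm43738, with which it shares 7512 bases of its span, and Gm43738 was listed at 0 reads in all 6 samples. A processed pseudogene, Gm3571, is 98.9% identical to Fdps transcripts over 1062 bases and held more reads than Fdps in every sample. Gm3571, examined after its values were seen, had 100, 111 and 106 reads in the controls and 298, 355 and 295 with metformin (log2 fold change of FPKM + 1 of 1.36, adjusted p = 0.000111 by limma-trend). Together Fdps, Gm3571 and the further pseudogene Gm5873 had 7.76 ± 0.70 RPM (reads scaled by the effective library size; SD, n = 3) in the controls and 24.5 ± 2.1 (SD, n = 3) with metformin, a ratio of 3.17 in place of 5.42 for Fdps alone. How the counting divided reads among these copies is not stated, so the level and the ratio of Fdps are uncertain.

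Fdft1 (chromosome 14, 63145150 to 63179578) encodes squalene synthase, the first enzyme of the sterol branch. Its FPKM was 13.5, 10.3 and 9.39 in the controls and 24.5, 25.9 and 25.1 with metformin, with a log2 fold change of 1.13 (95% interval 0.82 to 1.45). Its end overlaps by 774 bases the end of Ctsb, a lysosomal protease gene on the opposite strand with 11211 to 13592 reads. The log2 fold change of Ctsb was -0.07 (95% interval -0.32 to 0.17). The counting is not stated to use strand, so reads in those bases cannot be told apart. Ggps1 (chromosome 13, 14050659 to 14063488) encodes geranylgeranyl diphosphate synthase, the first enzyme of the other branch. It had 8.96, 5.59 and 5.47 FPKM in the controls and 4.47, 5.98 and 5.88 with metformin. Metformin replicates 2 and 3 lay between the control samples, and the log2 fold change was -0.23 (95% interval -0.69 to 0.23). This interval lies below those of Acat2, Hmgcs1, Mvk, Pmvk, Mvd, Idi1, Fdps and Fdft1. Ggps1 overlaps Arid4b on the opposite strand by 257 bases.

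**Figure D2:**
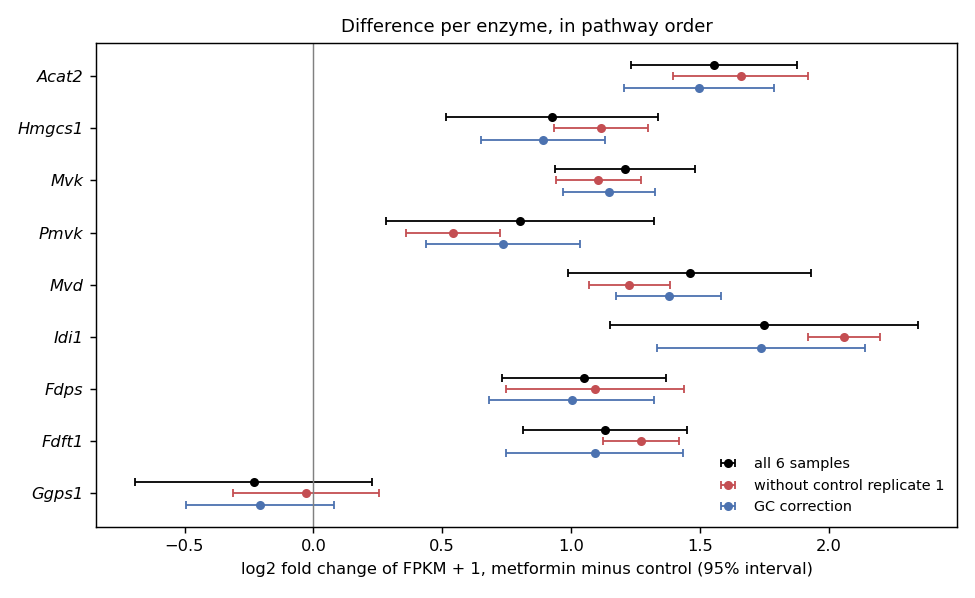
Log2 fold change of FPKM + 1 with its 95% interval (horizontal axis) for the 9 genes in pathway order, from limma-trend with all 6 samples, without control replicate 1 and after the GC correction. Only the intervals of Ggps1 include 0, and without control replicate 1 most intervals are narrower.

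The proportions among the 9 transcripts also differed. Hmgcs1 held 24.9% to 32.8% of the summed FPKM in the controls and 23.1% to 23.5% with metformin. The share of Ggps1 was 6.56% to 9.61% in the controls and 2.37% to 3.09% with metformin, and that of Idi1 was 3.49% to 7.13% and 8.05% to 8.27%. Acat2 went from 12.4% to 14.3% in the controls to 17.9% to 18.9% with metformin. For these 4 genes, and for Fdps, the shares of the groups did not overlap. A share is defined only within the 9 genes, so no value over all tested genes stands beside this, and nothing is read from it. Each share also depends on the other genes, and the FPKM of Ggps1 itself overlapped between the groups. The share of Fdps is as uncertain as its level. In the controls the order of levels per length was Hmgcs1, Acat2, Fdft1, Mvk, Mvd, Pmvk, Ggps1, Idi1 and Fdps. The ranges of neighbours overlapped for all steps between Acat2 and Idi1, so that only Hmgcs1 at the top and Fdps at the bottom stood apart. The place of Fdps in both orders is uncertain, because reads may be divided between it and its near-identical copies. With metformin the order was Hmgcs1, Acat2, Mvk, Fdft1, Mvd, Idi1, Pmvk, Ggps1 and Fdps, and Fdft1 with Mvd was the only pair of neighbours whose ranges overlapped. The coefficient of variation of the 9 genes was 15.0% to 49.8% in the controls (median 26.0%) and 1.90% to 22.6% with metformin (median 4.72%). Over the 7452 tested genes with a mean of at least 5 FPKM, its median was 14.9% in the controls and 4.09% with metformin. Fdps, whose 22.6% was the highest of the 9 with metformin, lay under that level.

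Much of the spread in the controls came from replicate 1, in which the 9 genes lay on both sides of the other controls. This replicate was the highest control for 6 genes and the lowest for 3, and never in between. The 6 genes were Acat2, Hmgcs1, Idi1, Fdps, Fdft1 and Ggps1, with a GC content of the longest transcript of 40.1% to 51.8%. The 3 genes were Mvk, Pmvk and Mvd, with 56.3%, 57.0% and 59.0%. The deviation of control replicate 1 from the mean of the other controls was 0.93 for Idi1 and -0.78 for Pmvk on the log2(FPKM + 1) scale. Across the 9 genes it had a Pearson correlation of -0.913 and a Spearman correlation of -0.917 with GC content, where the genes share the same libraries. Over all tested genes the Spearman correlation was -0.668. Without control replicate 1 the ratio of mean FPKM was 5.23 for Idi1 in place of 3.73 and 1.51 for Pmvk in place of 1.78. Without it 8 of the 9 genes, with Fdps counted, were still called higher, where 23.4% of all tested genes were. After a smooth trend on GC content was subtracted from each library, the count was again 8, where 16.3% of all tested genes were called higher. The split over all tested genes moved from 1670 higher and 1177 lower to 2062 higher and 2433 lower under this correction. With it the log2 fold change of Ggps1 was -0.21 (95% interval -0.49 to 0.08). Without control replicate 1 that of Ggps1 was -0.03 (95% interval -0.31 to 0.25), and its ratio of mean FPKM was 0.984 in place of 0.816. The part of GC content in the differences between the groups was not tested beyond these values.

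**Figure D3:**
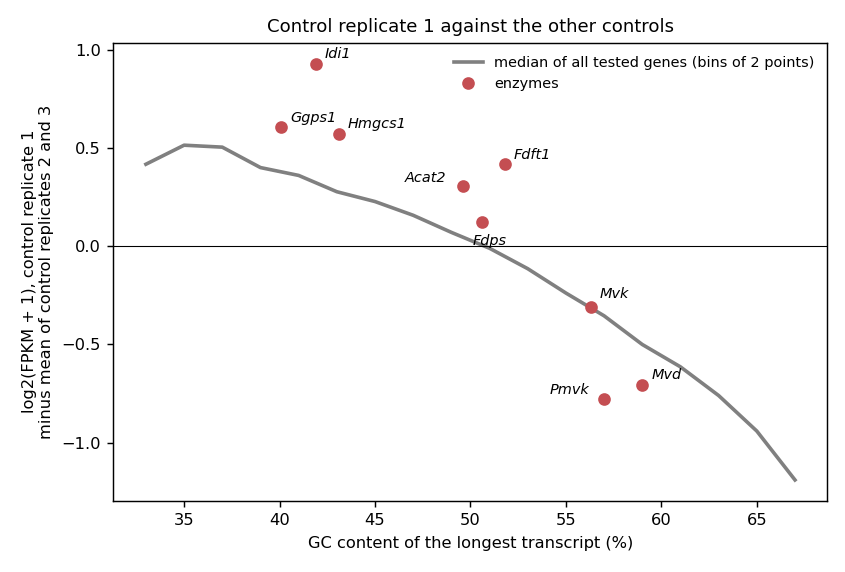
Deviation of control replicate 1 from the mean of control replicates 2 and 3 in log2(FPKM + 1) (vertical axis) against the GC content of the longest transcript in percent (horizontal axis). Points are the 9 genes and the grey line is the median of all tested genes in bins of GC content. Idi1, Ggps1 and Hmgcs1 lie at low GC content above 0, and Mvk, Pmvk and Mvd at high GC content below 0.

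Promoter sequence was examined because 8 of the genes were higher with metformin and Ggps1 was not. RefSeq windows (GRCm38.p6) of 300 bases, from 250 before the start of a transcript to 50 after it, were at hand for 7 of the genes and number 8, with a second start for Pmvk. No window of Fdps or Fdft1 was among those at hand. Each window was searched on both strands for a sterol regulatory element (TCACNCCAC), the NF-Y box (CCAAT) and the Sp1 box (GGGCGG). NF-Y and Sp1 are factors known to act beside SREBP. The sterol element was in 1 of the 8 windows, that of Hmgcs1, and in 1.24% of all 32851 windows. The NF-Y box was in 6 windows, against 37.4% of all, and the Sp1 box in 5, against 35.7% of all. The 250 bases before the start are shown for Hmgcs1, which holds the sterol element, for Idi1, which had the largest log2 fold change on the log2(FPKM + 1) scale, and for Ggps1, which was not called. Capitals mark matches to the motifs.
Hmgcs1 promoter (chr13:119690101-119690350, plus strand): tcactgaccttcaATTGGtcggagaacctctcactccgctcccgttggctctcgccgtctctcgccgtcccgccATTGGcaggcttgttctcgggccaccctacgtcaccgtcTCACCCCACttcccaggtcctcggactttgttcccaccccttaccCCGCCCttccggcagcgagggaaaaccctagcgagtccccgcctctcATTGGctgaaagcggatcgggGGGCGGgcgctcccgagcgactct
Idi1 promoter (chr13:8885356-8885605, plus strand): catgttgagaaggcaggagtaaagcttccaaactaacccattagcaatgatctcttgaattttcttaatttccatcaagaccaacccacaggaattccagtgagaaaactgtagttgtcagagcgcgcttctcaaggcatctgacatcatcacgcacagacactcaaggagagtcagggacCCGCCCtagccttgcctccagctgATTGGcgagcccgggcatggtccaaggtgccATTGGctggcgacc
Ggps1 promoter (chr13:14063489-14063738, minus strand): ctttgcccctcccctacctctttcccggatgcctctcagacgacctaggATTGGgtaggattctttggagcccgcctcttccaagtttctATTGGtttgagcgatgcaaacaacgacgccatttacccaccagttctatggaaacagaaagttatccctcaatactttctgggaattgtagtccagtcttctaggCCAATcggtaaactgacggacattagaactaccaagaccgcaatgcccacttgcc

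In Hmgcs1 the match to the sterol element, TCACCCCAC, begins 137 bases before the start. None of the marked matches overlap each other. Hmgcs1 had 4 NF-Y and 3 Sp1 matches in its whole window, Idi1 had 2 and 1, and Ggps1 had 3 NF-Y matches and 0 Sp1 matches. A match of letters is a description of the sequence and no evidence of binding, and a window with no match says only that these letters were not in it.

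The genes around the pathway were read from the same fit, in lists written with earlier results of these data known. Beside each list count below stand the 13.2% of all tested genes called higher and the 9.28% called lower. Nearest in function were 9 enzymes that act after squalene. Of these, 6 rose, 0 fell and 3 were not called, with a median log2 fold change of 0.97 beside 1.13 for the mevalonate enzymes, a difference that was not tested. In 8 of the 9 the metformin samples lay above every control, as in 8 of the mevalonate enzymes. The share over all tested genes was 23.6%. The largest rises were those of Hsd17b7 (log2 fold change 1.59), Cyp51 (1.19), Lss (1.10) and Nsdhl (1.07), with adjusted p-values by limma-trend of 0.00198, 0.00343, 0.000359 and 0.000372. Msmo1 (0.80), Ebp (0.39) and Dhcr7 (-0.17), which act in the steps of demethylation, isomerisation and the final reduction, were not called. The metformin samples of Msmo1 and Ebp still lay above every control, and those of Dhcr7 overlapped the controls.

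The control of the SREBP factors was represented by 7 genes, of which 2 rose, 1 fell and 4 were not called. Insig1, which holds the SREBP complex in the endoplasmic reticulum and is itself a target of SREBP, rose from 22.2 ± 0.45 to 56.3 ± 2.4 FPKM (SD, n = 3 each; log2 fold change 1.30, adjusted p = 0.000142 by limma-trend). Srebf2, which encodes the SREBP most tied to sterol synthesis, rose from 27.4 ± 2.6 to 43.7 ± 1.8 FPKM (log2 fold change 0.66, adjusted p = 0.00421 by limma-trend). Insig2 fell from 29.7 ± 7.1 to 18.7 ± 1.2 FPKM (log2 fold change -0.62, adjusted p = 0.0427 by limma-trend), a call that held in 8 of the 14 alternative fits. The escort protein gene Scap had a log2 fold change of -0.07, Srebf1 of 0.06 and the processing proteases Mbtps1 and Mbtps2 of 0.04 and -0.07.

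Of 11 genes of acetyl-CoA and HMG-CoA supply, 7 were tested, and 4 of them rose. Acat1, the mitochondrial acetyl-CoA acetyltransferase, rose from 15.3, 14.2 and 12.35 FPKM to 21.1, 21.8 and 22.4 FPKM (log2 fold change 0.61, adjusted p = 0.00596 by limma-trend). Acat3 was under the filter on low values, and Idi2 was listed at 0 in all 6 samples. Acly, which makes cytosolic acetyl-CoA from citrate, rose by a log2 fold change of 0.85 (adjusted p = 0.00104 by limma-trend), and Aacs, which activates acetoacetate, by 0.69 (adjusted p = 0.00454).

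Lists of genes that use the isoprenoids had medians near 0. Of 12 genes of protein prenylation 1 rose and 0 fell, with a median log2 fold change of -0.14. The 1 gene was Fntb, the farnesyltransferase beta subunit (log2 fold change 0.43, adjusted p = 0.0335 by limma-trend), whose call held in 7 of the 14 alternative fits. Of 11 genes of dolichol, ubiquinone and other isoprenoid products 0 rose and 1 fell, with a median of 0.07. That gene was Trit1, which adds an isopentenyl group to transfer RNA (log2 fold change -0.56, adjusted p = 0.00368 by limma-trend). These shares stood below or near the 13.2% of all tested genes called higher and the 9.28% called lower.

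**Figure D4:**
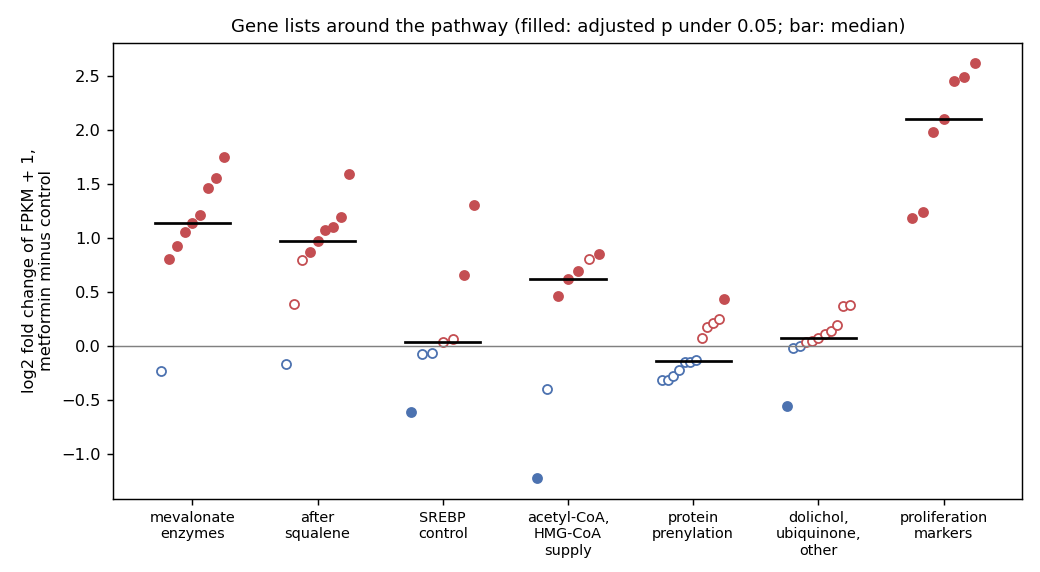
Log2 fold change of FPKM + 1, metformin minus control (vertical axis), for each tested gene of 7 lists. Filled points were called by limma-trend and the black bar is the median. The mevalonate enzymes and the enzymes after squalene have medians of 1.13 and 0.97, protein prenylation has -0.14 and the proliferation markers have 2.10.

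The osteoblast label was checked on 8 markers, all of which were detected. Col1a1, a chain of type I collagen, had 1339 ± 359 FPKM in the controls and 2487 ± 108 with metformin (SD, n = 3 each). The osteoblast transcription factors Runx2 and Sp7 had 30.5 ± 3.2 and 41.6 ± 5.2 FPKM in the controls. With metformin they had 26.7 ± 0.84 and 53.3 ± 1.0 FPKM. Alpl and Bglap had 3.16 ± 0.60 and 8.04 ± 5.2 FPKM in the controls and 2.71 ± 0.29 and 5.37 ± 0.83 with metformin. These 4 genes were not called. In the controls Ibsp and Spp1 had 814 ± 150 and 7703 ± 989 FPKM. Of the 8 markers, 2 rose and 2 fell with metformin. Those that rose were Col1a1 and Col1a2, the latter from 970 ± 28 to 1444 ± 74 FPKM. Those that fell were Ibsp and Spp1, to 265 ± 4.4 and 2704 ± 23 FPKM. The call of Col1a1 as higher held in 10 of the 14 alternative fits, with an adjusted p by limma of up to 0.186. Endothelial markers summed to at most 0.121 FPKM in any sample. Of the macrophage markers, Ptprc, Adgre1 and Csf1r had at most 8 reads. Cd68, a lysosomal protein also made by other cells, fell from 2.04 ± 0.10 to 1.17 ± 0.12 FPKM (SD, n = 3 each; adjusted p = 0.0102 by limma-trend). Of the adipocyte markers, Cidec was listed at 0 in all samples and Adipoq, Plin1 and Lep had at most 6 reads, with sums of 1.66 to 3.18 FPKM in the controls and 1.89 to 2.31 with metformin that came mostly from Fabp4. Markers of proliferating cells moved with the same groups. All 7 rose (adjusted p-values below the threshold), with a median log2 fold change of 2.10, and their summed FPKM was 69.4 to 91.0 in the controls and 266 to 274 with metformin. Mki67 had a log2 fold change of 2.45 and Top2a of 2.61. The part of proliferation in the levels of the mevalonate enzymes was not tested.

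Likeness to the 9 genes was measured as the Pearson correlation over the 6 samples with their mean standardized log2 profile. Among the 9 it was 0.997 for Acat2, 0.991 for Fdft1 and 0.985 for Fdps, and lowest for Pmvk (0.754) and Ggps1 (-0.291). Each of the 9 is itself part of the profile, which raises its own correlation. The 5 other genes most like the profile were Phka1, Polh, Mtfr2, Cdca2 and Ezh2, with correlations of 0.998 to 0.999. With 6 samples in 2 groups such values are common, and 1005 of the tested genes, members included, had a correlation of at least 0.95.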

How the data were processed

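RNA-seq of 3 control and 3 metformin samples of MC3T3-E1 was analysed. The authors deposited 1 table for the series, whose headers name no unit. From the values, the deposited numbers are FPKM, reads of a gene divided by the listed gene length and by an effective library size. With these divisors undone, 100% of the values were whole reads (tolerance 0.01 read), so reads per gene were recovered. The authors ran their own test with DESeq2. The submitters' processing notes list Bowtie 0.12.2 with mm8 and mm9, whereas 53585 of the 54532 genes had the coordinates of GENCODE M21 (GRCm38). The aligner settings, strand setting and treatment of multiply mapped reads are not given in the sources used here. No column was left unmatched to a sample.

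Groups followed the sample labels. The values were tested as log2(FPKM + 1) with limma-trend (limma 3.58.1, R 4.3.3; two-sided, Benjamini-Hochberg over all genes tested, threshold 0.05), after genes with a mean under 0.5 FPKM were removed, without a replicate block. Intervals are 95% intervals of this fit. A p-value sets the difference between the group means against the spread between the samples of a group. A count of 0 allows up to 3 reads, and this floor covers counting error only. The fit was tested on simulated data. Near-identical transcripts were found with BLAST+ 2.17.0 (at least 95% identity over 200 bases). The members and the gene lists were chosen with earlier results of these data known. Genes outside the 9 were named as paralogs, as SREBP control genes, as the up to 4 called genes of a list with the largest log2 fold change, as defining markers, or as the 5 genes most like the members. Msmo1, Ebp, Dhcr7, Cd68, Col1a2, Ibsp, Spp1 and the genes that share sequence with a member were named after their values were seen. The fit was repeated with a pseudocount of 0.1, with library sizes taken as total reads, unfiltered, with a minimum of 10 reads in every sample, with voom on the recovered reads, with a replicate block, with a GC correction (spline with 5 degrees of freedom) with and without the block, and without each sample in turn. Samples with the same replicate number did not deviate together (correlations of -0.0533, 0.0003 and -0.0549), so the numbers were not taken as pairs. The levels of some related genes are not reported here.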

Additional observations from a re-analysis of the deposited data

How the results depend on the processing

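The 8 enzymes higher in metformin kept their direction in all 14 alternatives. They include Fdps, which passed the filter on the mean only through its metformin samples. Of the 9 enzymes, 7 or 8 were called in each alternative except without metformin replicate 2, where 6 were called, Hmgcs1 having an adjusted p of 0.0517 by limma-trend, and Ggps1 was never called. The median log2 fold change of the 9 was 1.28 with a pseudocount of 0.1 and by voom, and 1.03 to 1.17 when 1 sample was left out. With the replicate block, 7 of the 9 were called higher, Pmvk being lost (adjusted p = 0.0514 by limma-trend). Of all 12681 tested genes, 1161 were then called higher and 698 lower. Without metformin replicate 2 the genes called higher numbered 943. They numbered 1638 with a pseudocount of 0.1, 1598 with total-read scaling, 1432 unfiltered, 1721 with at least 10 reads and 1776 by voom. Genes called lower numbered 2433 with the GC correction and 1888 with the GC correction and the replicate block. Leaving out 1 sample gave 938 to 2969 genes higher and 495 to 2590 lower, the highest without control replicate 1 and the lowest without metformin replicate 1.

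Protein prenylation genes called higher were 0 with total-read scaling, no filter or the replicate block and 0 to 3 with 1 sample left out, and those called lower were 3 (GC correction), 2 (with the block) and 0 to 1 (1 sample left out). SREBP control genes called lower were 0 with no filter or the replicate block and 0 to 2 with 1 sample left out. Genes of dolichol, ubiquinone and other products called higher were 1 with at least 10 reads or voom, 2 with the GC correction and 0 to 2 with 1 sample left out. Supply genes called lower were 2 with the GC correction, with or without the block, and 1 to 2 with 1 sample left out, and enzymes after squalene called lower were 1 with the GC correction and 0 to 1 with 1 sample left out. The log2 fold changes of Srebf1 (-0.015) and Mbtps1 (-0.016) reversed with the GC correction, with or without the block. With 1 sample left out those of Srebf1 (-0.074 to 0.142), Scap (-0.252 to 0.048), Mbtps1 (-0.011 to 0.093), Mbtps2 (-0.207 to 0.129) and Bglap (-0.906 to 0.121) changed sign. None of these genes was called in the main fit. Without control replicate 1, Bglap (adjusted p = 0.00314 by limma-trend) and Scap (adjusted p = 0.0214 by limma-trend) were called lower. Each of the 2 was called in 1 of the 14 alternatives. The cause was not tested. The number of samples, 3 in a group, and the distance of control replicate 1 from the other controls limit the precision of every difference. The fewest reads, 23 to 31 per control, limit Fdps.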
